A study of Mus musculus with 8 samples.

Results

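Ion channels and ligand-gated receptors set the electrical behaviour of neurons. The regions described here belong to genes of voltage-gated, inwardly rectifying, 2-pore and calcium-activated potassium channels, of voltage-gated calcium and sodium channels with their accessory subunits, and of AMPA, kainate and NMDA glutamate receptors and GABA-A receptors. They were chosen by the gene symbol of the array design (Kcn genes other than Kcnq1ot1, Cacn, Gria, Grik, Grin, Gabr and numbered Scn genes), with no measured value. The rule took 1030 probes of 116 genes, of which 967 passed the filters. Probes whose starts lay up to 500 bp apart were joined, and regions of at least 3 probes were kept, which gave 150 regions of 107 genes among 13183 regions in all. Of the others, 9 genes had probes but no such region: Kcnj14, Kcnh1, Scn10a, Kcnj11, Gabra2, Grik1, Kcnab2, Scn4a and Kcns3. The median member region held 5 probes over 600.5 bp.

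Methylated DNA was pulled down with an antibody against 5-methylcytidine (mDIP) and hybridised, against the DNA before the pull-down (input), to 1 Agilent CpG island array per sample. The 8 arrays were 4 of embryonic stem (ES) cells, namely wild type, aid-/-, mbd4-/- and with a Gadd45a knock down, and the livers and spleens of C57BL6/J mice aged 6 months that were aid-/- or mbd4-/-. Aid is a cytidine deaminase, Mbd4 a glycosylase that binds methylated CpG, and Gadd45a a stress-response protein, each studied for a part in removing DNA methylation. Each group is 1 array, so no group has a spread of its own, and wild-type tissue was not analysed here; the labels give no strain for the ES cells, no sex, and no number of animals or clones behind a sample.

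The level of a region is the mean over its probes of log2(bound/input) minus the array's median. It is relative to the array, not a percentage of methylated cytosines, and it also depends on how many CpGs a fragment holds. The top of the scale differed between arrays: the plateau, taken as the 98th percentile of the autosomal regions of an array, stood at 3.34 in wild-type ES cells, 4.44 in aid-/- ES cells, 4.26 in mbd4-/- ES cells, 2.72 in the Gadd45a knock down, 2.25 in aid-/- liver, 3.98 in mbd4-/- liver, 2.28 in aid-/- spleen and 3.63 in mbd4-/- spleen. A region is called high on an array where its level is at least 50% of that array's plateau. Bound signal was well above background for 81.2% to 98.1% of member probes, lowest in aid-/- ES cells. The array measures DNA, so neither the loss of the targeted transcripts nor marker expression could be checked. Among regions of marker genes of ES cells (11), liver (4), spleen and blood (11) and fibroblasts (8), none differed between liver with spleen and ES cells at an adjusted p under 0.05 (limma).

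CpG islands are short stretches rich in CpG that often cover the start of a gene. Those at starts are mostly free of methylation in every tissue, also where the gene is silent, while islands inside gene bodies or away from starts are more often methylated. A long gene can hold several islands and so carry both kinds.

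The probes below come from a high and a low region of the same gene; of these low regions, that of Kcnj4 has a probe in a known start window and those of Grik5 and Scn8a have none. Each is the probe nearest the centre of its region, from the array files (build mm9, strand not stated in them), with CpGs in capitals. Kcnj4 encodes an inward rectifier, Grik5 a kainate receptor subunit, and Scn8a a sodium channel pore subunit found at the site where action potentials start.
Kcnj4, high region, chr15:79315953-79315997: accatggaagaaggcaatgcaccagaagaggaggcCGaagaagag
Kcnj4, low region, chr15:79335743-79335787: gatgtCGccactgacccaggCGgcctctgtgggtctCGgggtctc
Grik5, high region, chr7:25800509-25800553: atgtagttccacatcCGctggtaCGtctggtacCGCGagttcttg
Grik5, low region, chr7:25795497-25795541: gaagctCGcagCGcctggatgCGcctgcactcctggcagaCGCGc
Scn8a, region high in liver and spleen, chr15:100884313-100884357: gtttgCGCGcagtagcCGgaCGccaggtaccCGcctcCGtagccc
Scn8a, low region, chr15:100877338-100877382: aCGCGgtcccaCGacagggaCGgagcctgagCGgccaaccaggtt
The Kcnj4 probe of the high region holds 1 CpG and that of the low region 3. The Scn8a probes hold 6 and 5, so there the dense probe was the one with high levels.

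The low region of Kcnj4 lies at the start of the gene. The RefSeq window of 300 bases around that start (chr15:79505192-79505491 of GRCm38.p6, minus strand, printed 5′ to 3′ along the gene, CpGs in capitals) contains 1 of its probes whole:
Kcnj4 start: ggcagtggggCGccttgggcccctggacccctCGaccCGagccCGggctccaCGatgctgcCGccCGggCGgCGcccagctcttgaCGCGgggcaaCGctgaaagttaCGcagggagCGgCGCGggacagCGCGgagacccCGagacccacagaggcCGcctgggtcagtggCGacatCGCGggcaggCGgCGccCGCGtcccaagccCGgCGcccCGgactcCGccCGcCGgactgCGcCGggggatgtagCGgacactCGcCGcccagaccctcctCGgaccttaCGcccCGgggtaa
It holds 41 CG. Of the 32851 RefSeq windows of that length, 3.46% hold as many or more, and the median is 7.

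Most member regions were low everywhere. Of the 150, 111 were high on no array (74.0%, against 83.6% of all regions), 11 were high on all 8 arrays (7.33%, against 3.66% of all regions) and 28 on 1 to 7 (12.7% of all regions). On the wild-type ES array 16 were high (10.7%, against 6.21% of all regions). The shares on the other arrays were 15.3% against 8.03% in aid-/- ES cells, 15.3% against 8.29% in mbd4-/- ES cells, 12% against 7.43% in the Gadd45a knock down, 16.7% against 9.22% in aid-/- liver, 13.3% against 8.63% in mbd4-/- liver, 18% against 9.79% in aid-/- spleen and 16.7% against 10.5% in mbd4-/- spleen. These shares describe the members and were not tested. The medians of the members lay between 0.10 and 0.34, and those of all regions between −0.17 and −0.0047.

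**Figure D1:**
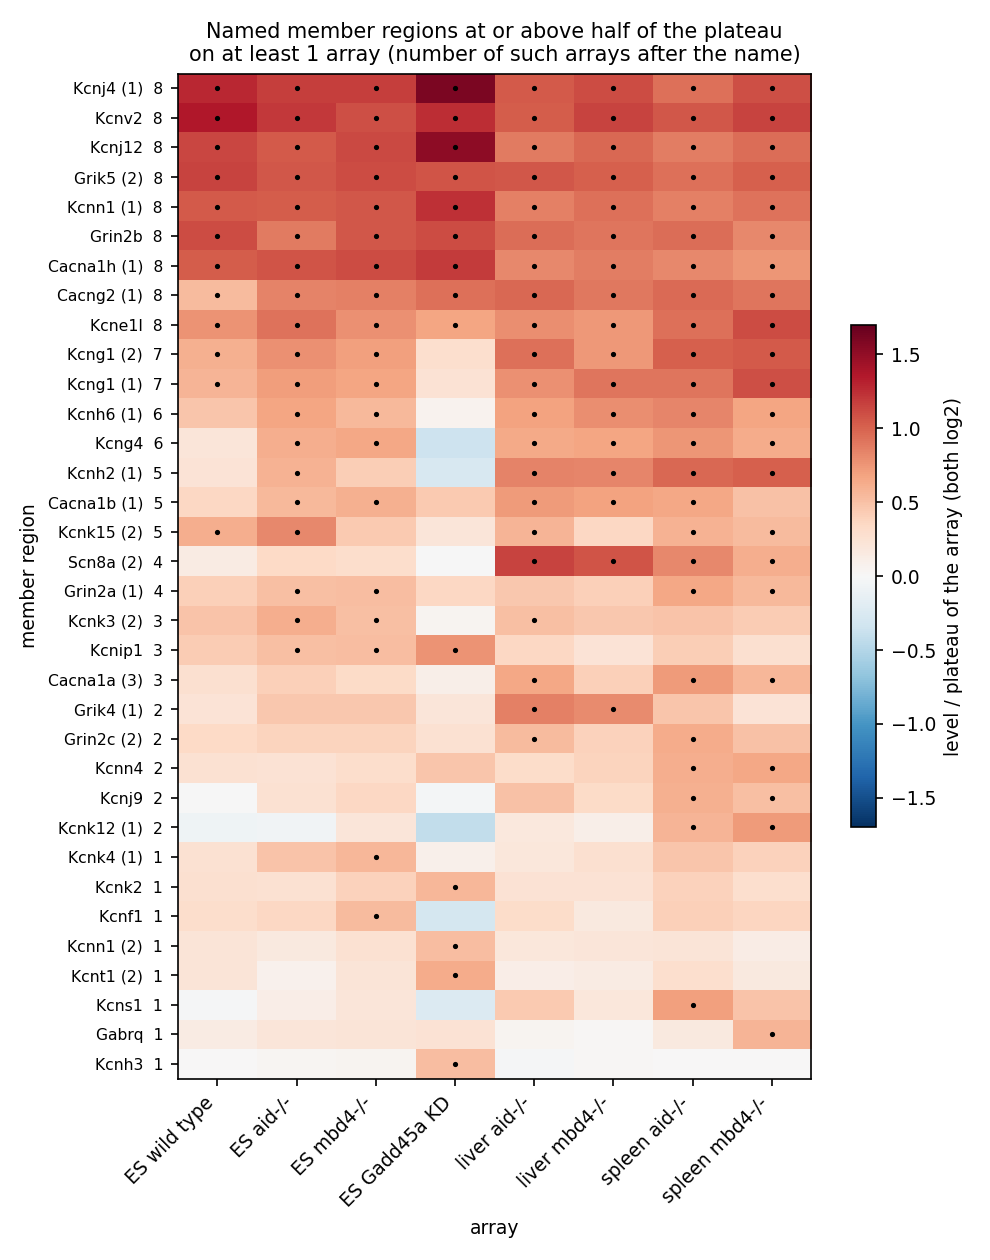
Heat map of 34 of the 39 member regions that were high on at least 1 array, 1 row per region and 1 column per array. Colour gives the level divided by the array's plateau, dots mark values of at least 50% of it, and the number after each name counts such arrays; regions of 1 gene are numbered along the chromosome. The top 9 rows are high on all 8 arrays, and the Scn8a and Kcnh2 rows are pale in wild-type ES cells and dark in liver and spleen.

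The 11 regions high on all 8 arrays came from most branches of the families. The potassium channel genes among them included Kcnv2, a modifier subunit of voltage-gated channels, Kcnj4 and Kcnj12, inward rectifiers, Kcnn1, a small-conductance calcium-activated channel, and Kcne1l, an accessory subunit on the X chromosome. The others included Cacna1h, a T-type calcium channel, Cacng2, an AMPA receptor regulator first classed as a calcium channel subunit, Grin2b, an NMDA receptor subunit, and Grik5. GABA-A receptors, 2-pore channels, sodium channel beta subunits and the 1 AMPA receptor region had none. The share over all regions was 3.66%, so small families without such a region do not stand apart.

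The Kcnj4 region (chr15:79315686-79316232, 5 probes) reached 4.28 ± 0.41 (SD over probes) in wild-type ES cells, 5.22 ± 0.29 in aid-/- ES cells, 5.00 ± 0.07 in mbd4-/- ES cells and 4.34 ± 0.49 in the Gadd45a knock down. In liver it was at 2.36 ± 0.16 (aid-/-) and 4.43 ± 0.30 (mbd4-/-), and in spleen at 2.13 ± 0.24 (aid-/-) and 3.96 ± 0.22 (mbd4-/-). It was high on every array, and the aid-/- tissues, whose plateaus were the lowest of the 8, gave its lowest values. Kcnv2 (chr19:27397547-27398106) was alike, at 4.55, 5.33, 4.67 and 3.42 in wild-type, aid-/-, mbd4-/- and knock-down ES cells. It was at 2.32 (aid-/-) and 4.57 (mbd4-/-) in liver, and 2.40 and 4.15 in spleen. It was the highest member in wild-type and aid-/- ES cells, mbd4-/- liver and both spleens.

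Grik5 (chr7:25800370-25800647) stood at 3.84, 4.66, 4.72 and 2.90 in the same order of ES cells, and, aid-/- first, at 2.37 and 4.04 in liver and 2.14 and 3.67 in spleen. Grin2b (chr6:135683062-135683340) stood at 3.71, 3.90, 4.47 and 3.03 in ES cells, 2.14 and 3.62 in liver and 2.16 and 2.96 in spleen. The regions of Kcnj12, Kcnn1, Cacna1h, Kcne1l and Cacng2 had means over the 8 arrays between 2.83 and 3.58.

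The 28 regions high on some arrays differed in where they were high. Kcng4 and Kcnh6, the latter a channel of the same group as Kcnh2, were high on 6 arrays, and Kcnh6 stood at 1.59, 3.00, 2.37 and 0.17 in wild-type, aid-/-, mbd4-/- and knock-down ES cells and at 1.53 to 3.14 in liver and spleen. Kcnn4, an intermediate-conductance calcium-activated channel best known from blood cells, was high only in the spleens, at 1.42 (aid-/-) and 2.41 (mbd4-/-), against 0.69 and 1.51 in liver and 0.84 to 1.28 in ES cells. Kcnj9, which pairs with Kcnj3 in neurons, was high in the same samples at 1.39 and 1.84, with −0.01, 1.18, 1.50 and −0.10 in wild-type, aid-/-, mbd4-/- and knock-down ES cells. The mbd4-/- ES level was above that of aid-/- spleen, but below 50% of its own, higher plateau. Cacna1a, the P/Q-type channel of nerve terminals, was at 1.47 and 1.60 in liver and 1.65 and 2.06 in spleen, and at 0.93, 1.77, 1.37 and 0.27 in wild-type, aid-/-, mbd4-/- and knock-down ES cells, so that ES cells and tissue overlapped. Of the 9 regions high on 1 array, 5 were high in the knock down, among them Kcnk2, Kcnt1, Kcnh3 and the middle region of Kcnn1.

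The lowest region of each family was high on no array. Its mean over 8 arrays was −0.57 for GABA-A receptors (Gabrg3), −0.58 for NMDA receptors (the third Grin1 region, at the start), −0.12 for kainate receptors (Grik3, 14 probes), −0.37 for calcium channel pores (Cacna1b), −0.60 for calcium channel accessory subunits (Cacna2d2), −0.55 for 2-pore channels (Kcnk13), −0.70 for calcium-activated channels (Kcnmb4) and 0.10 for sodium channel pores (Scn9a). Of the 8 GABA-A receptor regions 7 were high on no array, and of the 14 regions of calcium channel accessory subunits 13. Since 83.6% of all regions were high on no array, these counts are not particular to the 2 families. Family medians of these means lay between −0.20, in the 3 sodium channel beta regions, and 0.64, in the 1 AMPA receptor region.

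Regions high on all 8 arrays held fewer CpGs. Their median was 4.00 CpG per 100 probe bases, with a range of 2.73 to 5.93, against 5.77 in the 111 members high on no array. The same held over all regions, 4.06 against 5.59, so the difference is not particular to channel genes. A region with a wild-type ES level just inside the limit was Cacng2 at 1.78, and just outside lay Kcnk3 at 1.60 and Kcnh6 at 1.59, for a limit of 1.67.

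Few member regions at a known start were high. For 82 of the 116 genes RefSeq gives a start window, and 41 member regions had a probe sharing at least 30 bases with one. None of these 41 was high on all 8 arrays and 37 were high on none. The 4 high on any were Kcnip1 on 3 arrays and Kcnk2, Gabrq and Kcnn1 on 1 each. Of all regions, at a start or not, 3.66% were high on all 8 arrays and 83.6% on none. Start windows were matched for members only, so no share for the starts of all genes can be set beside these counts. Of the 63 regions of genes with a known start but no probe in its window, 6 were high on all 8 arrays and 20 on any. The medians of the mean level over 8 arrays were 0.01 with and 0.35 without a probe in the window. The remaining 46 regions belong to genes without a window in that table.

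Some genes held both a high and a low region, and the low one was not always at a start. Of the 107 genes, 33 had at least 2 regions. In 6 of them the highest region was high on all 8 arrays and the lowest on none, in 20 the highest was high on at least 1 array and the lowest on none, and in 11 no region was high. Since the highest and the lowest were picked by their means, the differences below are a description. The same counts were not made for all genes of the array, so no share can be set beside them. In Kcnj4 the mean over 8 arrays was 3.96 in the high region and −0.69 in the region 19786 bp away at the start of the gene. Its low region ranged from −1.32 in the knock down to −0.11 in aid-/- liver, so that no array brought the regions together. In Kcnn1 the means were 3.35 and −0.50 at 12941 bp apart, and in Grik5 3.54 and 0.02 at 5318 bp apart. In both pairs, neither region had a probe in a start window. In Grik2 and Cacna1c, where no region was high, the region with the higher mean was the one at the start.

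The calcium channel genes Cacna1h and Cacna1b also had a high and a low region. Cacna1h had means of 3.25 and −0.08 over 47088 bp. Cacna1b, which encodes the N-type channel of nerve terminals, had 1.89 in a region high on 5 arrays and −0.37 in a region of 13 probes at its start, 83160 bp away. Among NMDA receptors Grin2c had 4 regions with means of −0.34, 1.39, 0.53 and 0.80 along the chromosome. Kcng1, a modifier subunit of delayed rectifiers, was unlike these: both its regions were high on 7 arrays, with means of 2.50 and 2.54. In Kcna1, an action potential repolarising channel of axons, neither region was high, and the lower had the lowest mean of all voltage-gated potassium channel regions, −0.89.

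**Figure D2:**
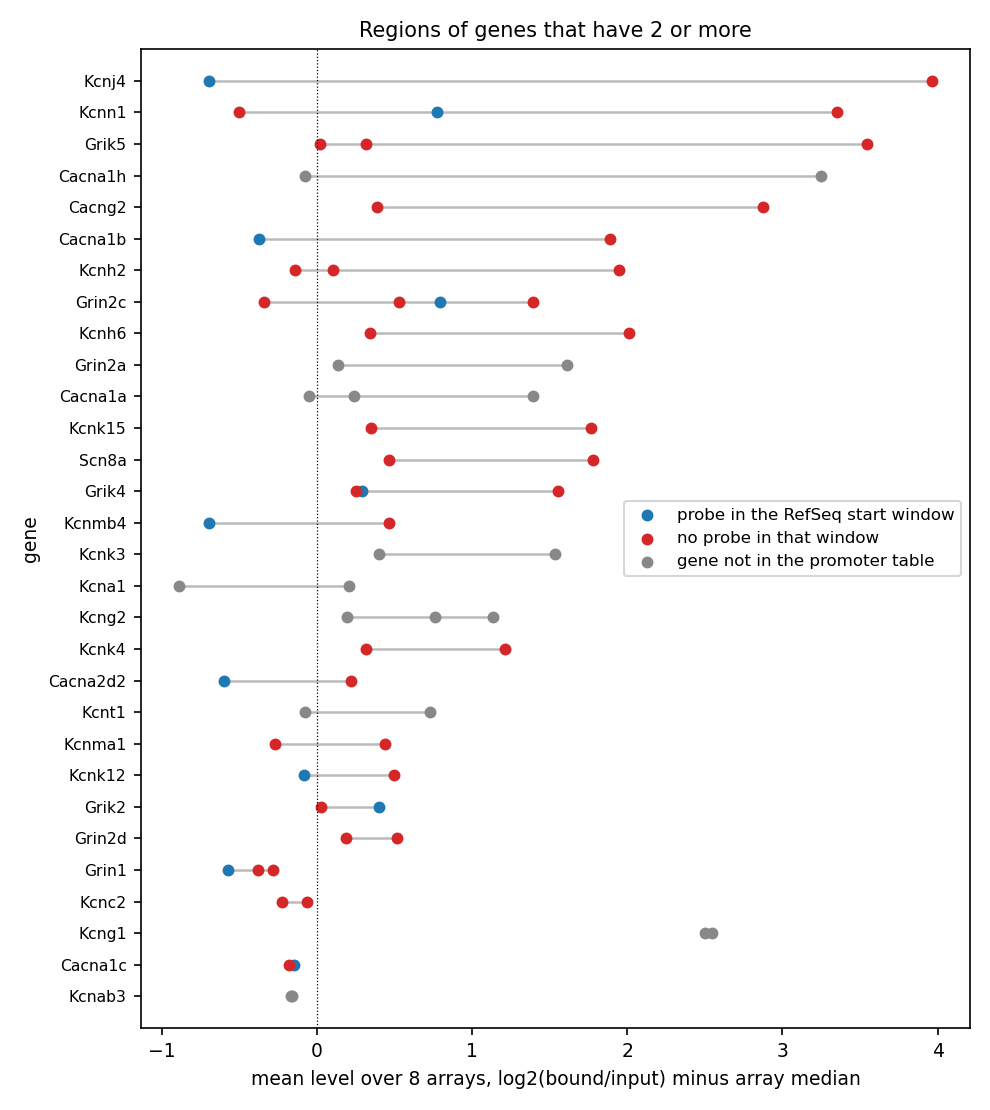
Mean level over 8 arrays of each region of 30 of the 33 genes with at least 2 regions, 1 row per gene and 1 point per region, ordered by the distance between the outer points. Blue points have a probe in the RefSeq start window, red points do not, and grey points belong to genes absent from that table; the row of Kcnj4 runs from −0.69 to 3.96.

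The probes of Kcnj4 fell into the same classes as its regions. The 5 probes of the high Kcnj4 region lay between 1.93 and 5.71 over all arrays, and the 4 probes of its low region between −3.75 and 1.25. In Cacna1b the probes overlapped when all arrays were pooled. Those of the region with the higher mean ran from −0.42 to 3.62 and those of the region at the start from −3.88 to 2.76. The −0.42 and the 2.76 were both from the knock down. Within an array, the probes of the 2 regions overlapped only in wild-type ES cells and the knock down.

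**Figure D3:**
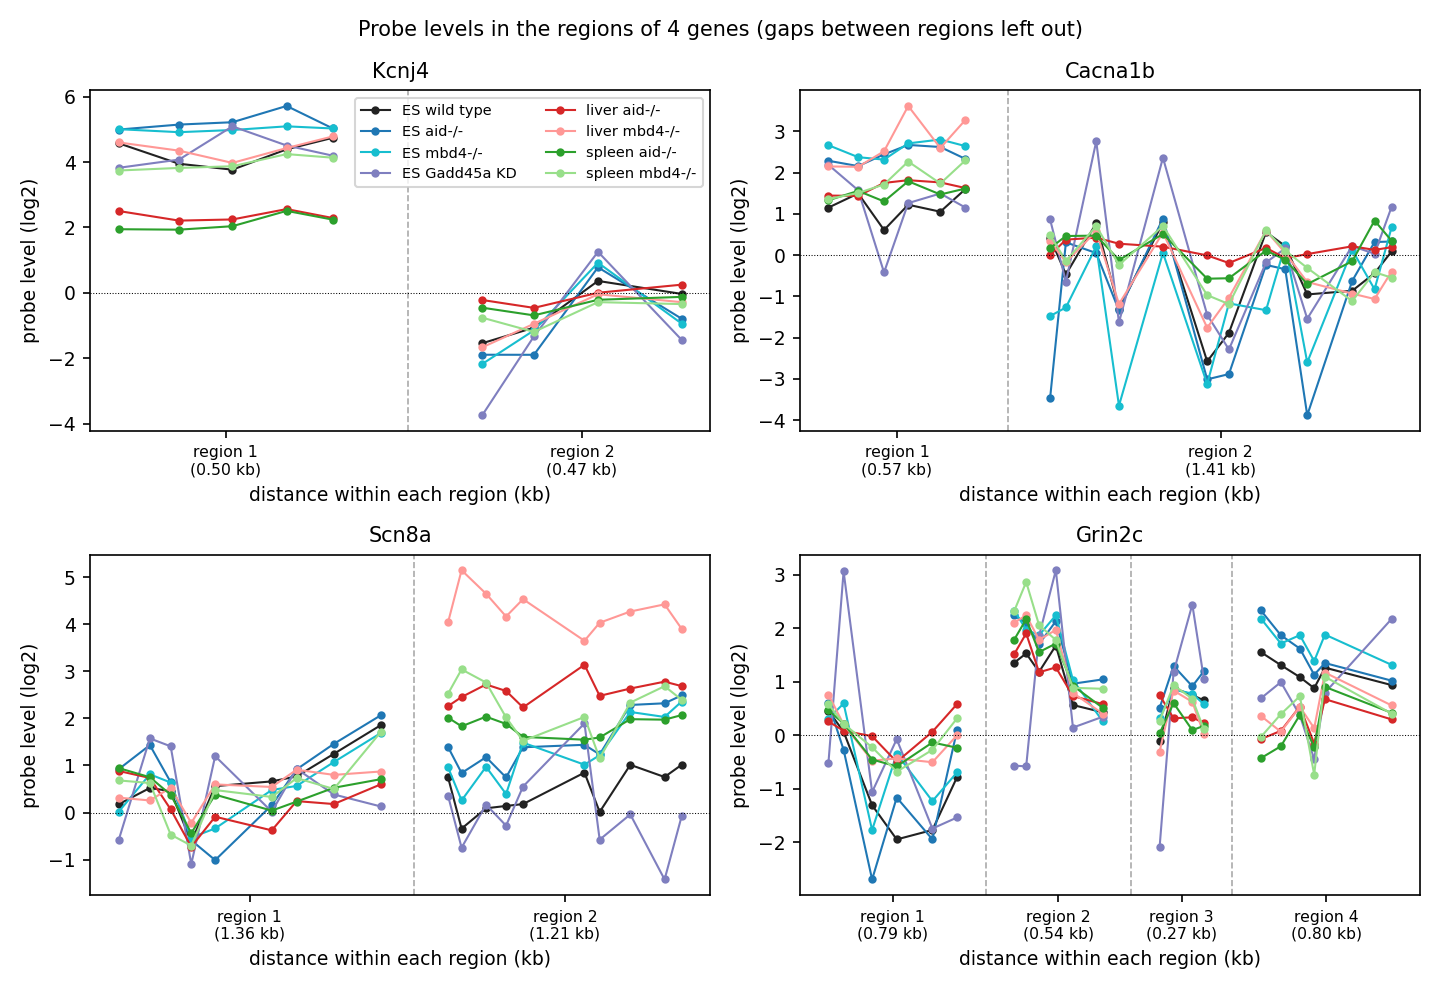
Probe levels, log2(bound/input) minus array median, along the regions of Kcnj4, Cacna1b, Scn8a and Grin2c on the 8 arrays. Regions are set side by side with the sequence between them left out, and the distance within each is to scale inside a panel. Lines join probes of 1 array; in Scn8a the second region is higher on the liver and spleen arrays than on the wild-type ES array at every probe.

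Liver and spleen were compared with ES cells over all 8 arrays with limma, with tissue as the factor and the mean of liver and spleen against ES. This pools genotypes within a tissue, and its error is the spread between arrays of different genotype. Over all regions 23 were higher (0.174%) and 9 lower (0.0683%) at an adjusted p under 0.05, and no member passed. At an unadjusted p under 0.05, 15 members were higher (10.1% of all regions) and 13 lower (5.79% of all regions). The median difference was −0.01 over the members and 0.08 over all regions.

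Of the 4 members with the smallest p, Scn8a had the largest difference. Its region of 10 probes (chr15:100883605-100884862) was at 0.45 ± 0.48 (SD over probes) in wild-type ES cells, 1.53 ± 0.62 in aid-/- ES cells, 1.28 ± 0.72 in mbd4-/- ES cells and −0.02 ± 0.88 in the knock down. It was at 2.60 ± 0.26 in aid-/- liver, 4.28 ± 0.43 in mbd4-/- liver, 1.85 ± 0.20 in aid-/- spleen and 2.25 ± 0.58 in mbd4-/- spleen. The 4 tissue arrays all lay above the 4 ES arrays, and liver above spleen in each genotype. The difference was 1.93 ± 0.45 (SE) on the log2 scale, with an adjusted p of 0.124 (limma). Put on 1 plateau, the arrays gave 2.43 with an adjusted p of 0.00248, and the authors' deposited values, joined into slightly different regions, gave 3.35 with an adjusted p of 0.00157. Within the 4 arrays of the first scan day the difference was 1.24 with an adjusted p of 0.243. The other Scn8a region, 7064 bp away, was low throughout, from 0.17 in aid-/- liver to 0.67 in aid-/- ES cells.

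The regions most like this one over the 8 arrays were Cacna1g (Pearson r = 0.81), a T-type calcium channel, Kcnh2 (r = 0.79), a repolarising channel of heart and brain, and Grik4 (r = 0.78), a kainate receptor subunit. Cacna1g was high on no array and ran only from −0.66 in aid-/- ES cells to −0.07 in mbd4-/- liver. Its r therefore reflects small shifts at low levels, not a rise like that of Scn8a. The arrays share tissue and plateau, and r is given as a description over 8 arrays.

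Cacng6, a calcium channel gamma subunit, had the smallest p of the members. It was at −0.11, −0.29, −0.55 and −0.51 in wild-type, aid-/-, mbd4-/- and knock-down ES cells. It was at 0.50 (aid-/-) and 0.41 (mbd4-/-) in liver and at 0.72 and 0.83 in spleen. The groups did not overlap, and the difference was 0.98 ± 0.18 with an adjusted p of 0.0715 (limma). It was low on all arrays, so that the difference lies in the lower part of the scale. With 1 plateau its adjusted p was 0.0262, and with a limma trend 0.0477.

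Kcnip1, a calcium-sensing partner of A-type potassium channels and the member region at a start with the most high arrays, was at 1.43, 2.27, 2.21 and 2.09 in wild-type, aid-/-, mbd4-/- and knock-down ES cells and between 0.81 and 0.97 in liver and spleen. Every ES array lay above every tissue array. The difference of −1.09 ± 0.23 for tissue minus ES had an adjusted p of 0.0888 (limma), and 0.212 with 1 plateau. With the aid-/- and mbd4-/- arrays alone and genotype as a block it was −1.33 ± 0.17 with an adjusted p of 0.0256 (limma), which passed.

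Grin2c, an NMDA receptor subunit typical of the cerebellum, passed the test in some fits with its last region (chr11:115127850-115128696). Without the Gadd45a knock-down array it was lower in tissue by −1.20 with an adjusted p of 0.0389 (limma), and with 1 plateau its adjusted p was 0.0413. That region was at 1.17, 1.56, 1.73 and 0.76 in ES cells and at most 0.47 in liver and spleen. With the aid-/- and mbd4-/- arrays alone and genotype as a block, limma called 8 members higher and 10 lower, among 517 and 652 regions of all. Cacna1h (−2.25, adjusted p 0.0308) was among the lower and Cacng6 (1.03, adjusted p 0.0372) and Cacnb3 (1.11, adjusted p 0.0341) among the higher.

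Related genes outside the rule were read beside the members. A list of 43 genes for other channels, receptors and synaptic proteins had 72 regions, of which 1 was higher and 1 lower in tissue at an adjusted p under 0.05 (limma). A region of 5 probes of Stx1a, a membrane fusion protein of nerve terminals, ranged from −0.56 to 0.09 on the ES arrays. It rose to between 2.12 and 3.14 in liver and spleen, a difference of 2.84 ± 0.28 (adjusted p = 0.0142, limma). The other Stx1a region, of 7 probes, had a difference of −0.004. A region of 3 probes of Accn1, an acid-sensing sodium channel, ranged from 1.49 to 2.18 on the ES arrays. It fell to between 0.16 and 0.71 in liver and spleen, a difference of −1.46 ± 0.22 (adjusted p = 0.0495, limma). The other Accn1 region, of 11 probes, went the other way, by 0.58 (adjusted p = 0.227, limma). Of these 72 regions 10 were high on all 8 arrays (3.66% of all regions) and 42 on none (83.6% of all regions). The 8 regions of 7 genes of the RE1 silencing complex, which keeps neuronal genes off in other cells, were high on no array. The same was true of 83.6% of all regions.

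No member passed the test of liver against spleen, which had 2 arrays of different genotype a side. Over all regions none passed an adjusted p under 0.05 in limma (0% higher and 0% lower), and at an unadjusted p under 0.05 there were 101 higher and 103 lower regions of all (0.766% and 0.781%), with 1 and 3 members. Grik4 was higher in liver, at 1.94 and 3.19 (aid-/- and mbd4-/-) against 1.06 and 0.86 in spleen (aid-/- and mbd4-/-), with an adjusted p of 1 (limma). Kcnk12, a 2-pore potassium channel gene, was higher in spleen, at 1.32 and 2.65 against 0.39 and 0.38 in liver. Its adjusted p was also 1, and its other region, at the start, lay between −0.25 and 0.43 on all arrays.

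The mutants were compared with their counterpart array by array. Regions were listed at a log2 difference of 1 or more, if 75% or more of their probes had the same sign. With 1 array a side this is a description of arrays, with no test. The 3 ES comparisons share the wild-type array, so their lists are not independent.

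In aid-/- ES cells 26 members were listed as higher than in wild type (17.3%, against 8.70% of all regions) and 4 as lower (2.67%, against 2.21%). The higher set held 6 of the 44 voltage-gated potassium channel regions, 4 of the 13 of calcium channel pores and 3 of the 8 of inward rectifiers. Kcng4, another modifier subunit of delayed rectifiers (chr8:122156823-122157390), went from 0.70 ± 0.53 in wild type to 2.73 ± 0.45 (SD over 5 probes). Cacna1c, the main L-type channel of heart and brain, went from −1.15 ± 1.51 to 0.91 ± 0.28 (SD over 4 probes). Of these probes 2 had bound signal well above background in aid-/- ES cells. Its region of 12 probes at the start differed by 0.31. Cacng2 went from 1.78 to 3.74, Kcnh2 from 0.76 to 2.66 and Kcnj3, a G-protein-activated inward rectifier, from 0.17 to 1.94. Cacna2d1, the calcium channel subunit that binds gabapentin, went from 0.48 ± 0.72 to −1.40 ± 2.17 (SD over 4 probes). Cacnb3 went from −0.29 ± 0.55 to −1.48 ± 2.25 (SD over 4 probes). In aid-/- ES cells, bound signal was well above background for 2 of the 4 probes of each. Scn9a, a sodium channel of pain-sensing neurons, went from 0.44 to −0.65. Of the 26 higher, 14 were high in aid-/- ES cells and 9 on both arrays; the 4 lower were high on no array.

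These counts moved with the scale. The plateau of aid-/- ES cells was 4.44 against 3.34, and with all arrays put on 1 plateau 7 members stayed listed as higher and 1 as lower. The 7 were Kcng4, Cacna1c, Cacng2, Kcnh2, Kcnj3, Kcnab3 and Cacng7, and the 1 was Cacna2d1. With normexp background correction 5 stayed higher, among them Kcng4, Cacng2 and Kcnh2, and none lower. The split of higher to lower was 5 to 0 with normexp and 5 to 2 with the authors' values.

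In mbd4-/- ES cells 19 members were listed as higher than in wild type (12.7%, against 7.64% of all regions) and 3 as lower (2.00%, against 2.59%). Kcng4 was at 2.82, Cacna1c at 0.80, Cacng2 at 3.65, Kcnab3, a cytoplasmic beta subunit, at 1.03 against −0.70 in wild type, and Kcnk4, a mechanosensitive 2-pore channel, at 2.41 against 0.86. Kcnj3 was at −1.04, the low region of Kcnn1 at −1.64 against −0.59, and Cacnb3 at −1.30. With 1 plateau 6 stayed higher (Kcng4, Cacna1c, Cacng2, Kcnab3, Kcnk4 and Kcnj9) and none lower, and with normexp 3 stayed higher and none lower. Centring on the low mode of each array gave 28 higher and 1 lower.

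The Gadd45a knock down had 8 members higher (5.33%, against 6.46% of all regions) and 11 lower (7.33%, against 6.46%). Voltage-gated potassium channel regions, the largest family with 44 of the 150, made up 8 of the 11 lower, including both regions of Kcng1. Kcnf1, a modifier subunit, went from 0.99 to −0.80 and Kcng4 from 0.70 to −0.95. Grin1, the obligatory NMDA receptor subunit, went from −0.01 to −1.58 in 1 of its 3 regions, and Kcnk15, a 2-pore channel gene, from 2.08 to 0.56. Among the higher, Kcnh3 went from 0.01 to 1.43, Kcnh8 from −0.10 to 1.14, Scn3b from −0.79 to 0.42, Cacng4 from −0.09 to 1.01 and Grin2d from 0.13 to 1.21.

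In the knock down 10 of the 11 lower and 7 of the 8 higher members stayed listed with 1 plateau. That setting stretched the knock-down array (plateau 2.72) and shrank the aid-/- and mbd4-/- ES arrays (4.44 and 4.26). It left wild type (3.34) nearly unchanged. The shares that stayed listed therefore do not compare how firm the lists of the 3 ES comparisons are. With normexp 8 of the lower stayed and none of the higher, so the split between higher and lower was 0 to 13 there, 3 to 17 with centring on the low mode of each array and 6 to 13 with the authors' values, against 8 to 11. In the ES cells, Kcng4 and Kcnh2 were listed higher in aid-/- and mbd4-/- and lower in the knock down. With normexp neither was listed lower in the knock down, and Kcnh2 was not listed higher in mbd4-/- with 1 plateau, normexp, no input filter, the authors' values or the median over probes. Kcnh2 was at 0.76, 2.66, 1.77 and −0.75 in wild type, aid-/-, mbd4-/- and knock down. The knock-down and mbd4-/- arrays were each scanned on a day of their own, and the wild-type and aid-/- arrays on the same day. For the knock-down and mbd4-/- ES cells, scan day cannot be told apart from genotype.

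**Figure D4:**
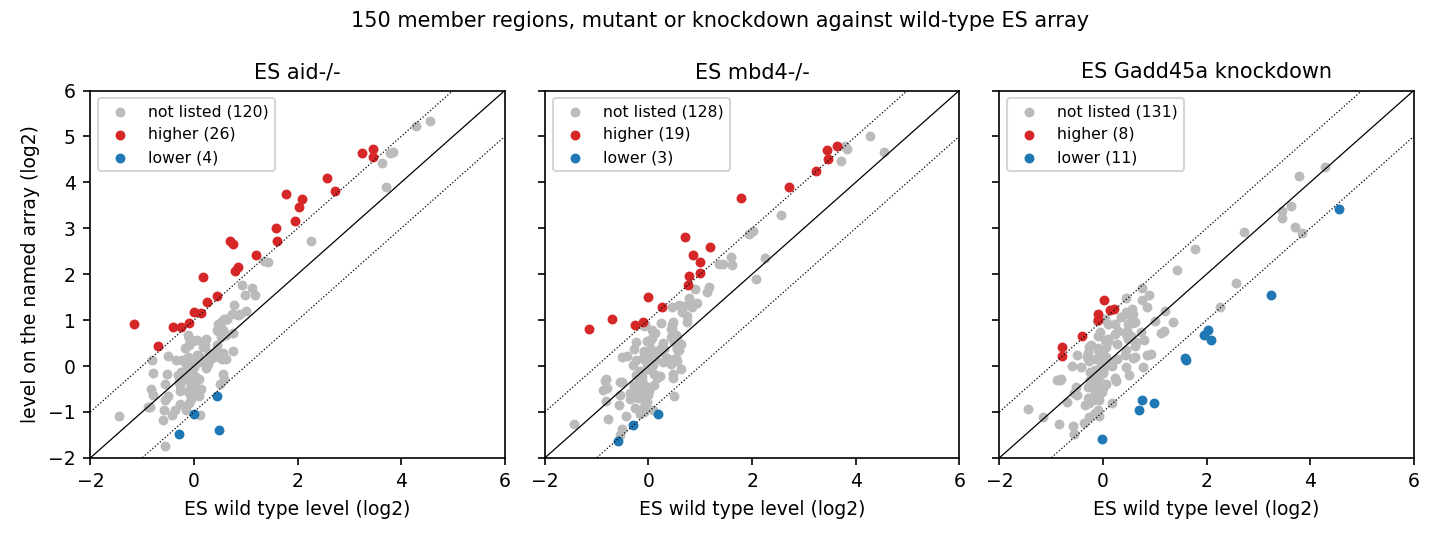
Level of the 150 member regions in wild-type ES cells (x axis, log2) against aid-/-, mbd4-/- and Gadd45a knock-down ES cells (y axis, log2). The solid line marks equal levels and dotted lines a difference of 1; red and blue points are the regions listed as higher and lower, 26 and 4, 19 and 3, and 8 and 11 in the 3 panels.

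In liver, aid-/- was listed below mbd4-/- in 18 members (12%, against 7.65% of all regions) and above it in 2 (1.33%, against 1.34%). All 18 lower regions were high on both arrays. They were led by Kcnv2 (2.32 against 4.57), Kcnj4 (2.36 against 4.43), Kcnj12 (1.98 against 3.90), Kcng1 (1.75 against 3.61) and Kcnn1 (1.92 against 3.70). The plateaus were 2.25 and 3.98, and with 1 plateau none of the 18 stayed listed. The 2 higher regions, Kcnj3 (0.00 against −1.58) and Kcnma1, the large-conductance calcium-activated channel (0.49 against −0.57), were high on no array. Both stayed listed with 1 plateau and neither with normexp; Kcnj3 was not listed with the authors' values, nor Kcnma1 with centring on the low mode or the median over probes. In all, liver had 4 higher and 0 lower members with 1 plateau, and 3 and 1 with the authors' values.

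In spleen the counts were again 18 lower (12%, against 7.59% of all regions) and 2 higher (1.33%, against 0.281%). Kcng1 was at 2.07 against 3.96, Kcne1l at 2.15 against 4.02, Kcnj4 at 2.13 against 3.96, Kcnv2 at 2.40 against 4.15 and Gabrq at 0.39 against 2.10. The higher regions were Grik2 (0.81 against −0.43) and Kcnj3 (0.48 against −0.69). Neither stayed listed with normexp, probe GC correction or the authors' values, and Grik2 was also lost with the median over probes. Of the 18 lower, 14 were high on both arrays. With the authors' values the split was 4 higher to 11 lower, and with 1 plateau 5 to 4. The 4 lower ones with 1 plateau were Gria3, Gabre, Gabrq and Cacna1f. In both tissues genotype goes with scan day and with the source of the DNA, which cannot be told apart from it.

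Those 4 are on the X chromosome. The X-linked members were Gria3, an AMPA receptor subunit, Gabre and Gabrq, the epsilon and theta subunits of GABA-A receptors, Cacna1f, the L-type channel of the retina, and Kcne1l. All 5 were listed lower in aid-/- than in mbd4-/- spleen, with medians of 0.33 and 1.78, against 13 of the 145 autosomal members. Without Kcne1l, which was high on every array, the 4 lay between 1.65 and 2.10 in mbd4-/- spleen and between −0.14 and 0.39 on the other liver and spleen arrays. Of all 352 X-linked regions 302 (85.8%) were listed lower, with a median difference of 1.94 for mbd4-/- minus aid-/- spleen, so the values are shared by the chromosome and not particular to these genes. The labels give no sex, and its part in the result was not tested. Without X-linked members the spleen counts were 13 lower and 2 higher.

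**Figure D5:**
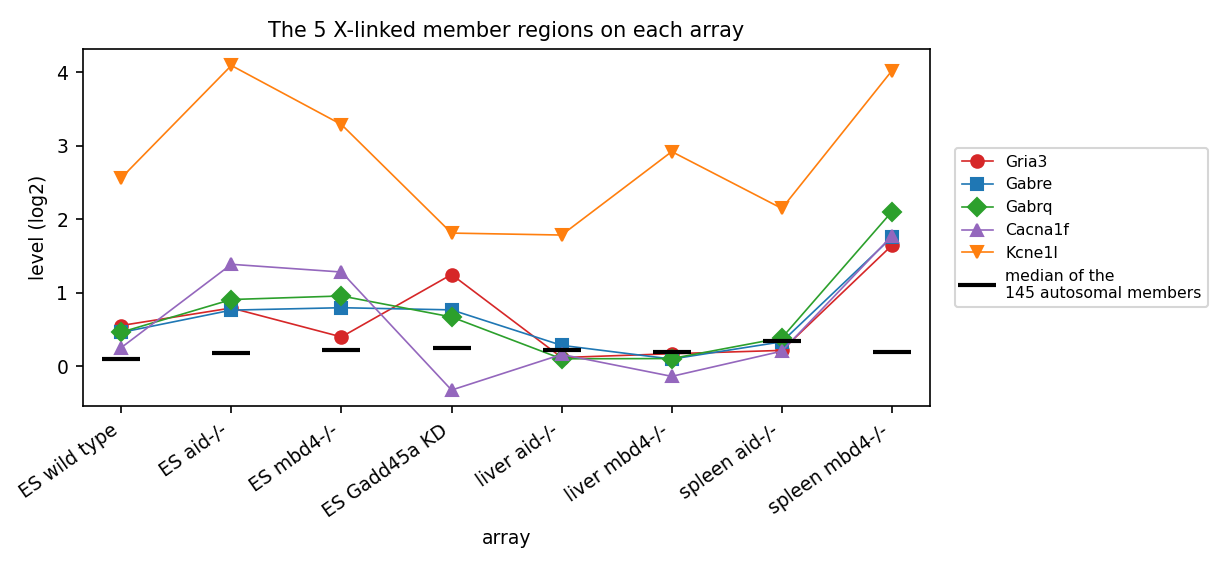
Level (log2) of the 5 X-linked member regions on the 8 arrays, 1 marker and line colour per gene, with black bars for the median of the 145 autosomal members. Gria3, Gabre, Gabrq and Cacna1f lie between 1.65 and 2.10 in mbd4-/- spleen and at most 0.39 in the other liver and spleen arrays.

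Over ES cells, liver and spleen together, aid-/- was compared with mbd4-/- in limma with tissue as a block (6 arrays). No region of the 13183 passed an adjusted p under 0.05 (0% higher and 0% lower), and at an unadjusted p under 0.05 there were 11 members higher (5.33% of all regions) and 9 lower (5.40%). Kcnj3 had the smallest p of the members: its region of 3 probes (chr2:55289607-55289883) was at 1.94 ± 0.57 against −1.04 ± 0.90 (SD over probes) in ES cells, 0.00 ± 0.16 against −1.58 ± 0.21 in liver and 0.48 ± 0.12 against −0.69 ± 0.19 in spleen. It was higher in aid-/- in 3 of 3 tissues, by 1.91 ± 0.37 (SE), with an adjusted p of 0.464. The wild-type ES cells lay between, at 0.17 ± 0.26. The probe at its centre is shown, since this was the only member listed as higher in aid-/- in both liver and spleen.
Kcnj3, chr2:55289729-55289773: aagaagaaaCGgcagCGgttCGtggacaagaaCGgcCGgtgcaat
It holds 5 CpGs. Grin2b (−0.95 ± 0.23) and Grik2 (0.80 ± 0.21) were among those that followed, each with an adjusted p of 0.464 (limma). Without the ES arrays, which the fit loses when either is left out, 1 member was higher (Kcnj3, 1.38, adjusted p 0.00280) and 18 lower, among 80 and 992 regions of all. Those 4 tissue arrays have plateaus of 2.25 and 2.28 (aid-/-) against 3.98 and 3.63 (mbd4-/-). With tissue as a block, 4 arrays leave little to estimate the spread of a region. Kcnj3 was listed in neither liver nor spleen with normexp or the authors' values, so its small p is no firm genotype difference.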

How the data were processed

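Both channels of 8 arrays were analysed, Cy3 for input and Cy5 for antibody-bound DNA, per the labels. Spot intensity values in the deposited scanner files are those that Agilent Feature Extraction (10.7.3.1 for mbd4-/- ES and knock-down arrays, 10.9.1.1 for the others) had background-subtracted and dye-normalised, with build mm9, per the file headers. Their deposited log10 ratio (red over green) served to check direction. The authors' deposited value table is a score of unstated scale, multiplied by 1.28 for use as an alternative; its array medians ran from −0.21 to −0.03 and its correlations with the scanner ratio over probes from 0.90 to 0.97. The steps from scanner to table are not given in the sources used here.

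Of 88737 probes, 326 without a position, 132 with outlier marks and 7174 with an input signal that failed the background test on 1 or more arrays were dropped, leaving 81105. Log2(bound/input) was centred on each array's median, with no loess or quantile step, and averaged by region. Gene names are those of the newer array annotation in the files; the older one gives 1015 member probes. Regions were tested with limma 3.58.1 in R 4.3.3 with Benjamini-Hochberg adjustment over all 13183 regions. The fit of liver and spleen against ES cells was run on simulated data with independent noise and constant shifts. That simulation held no difference in plateau between arrays, so it cannot show how such differences affect the calls. The number of arrays limits precision. In the fits with tissue alone as the factor, the p-values measure spread between arrays of different genotype. In the fit of aid-/- against mbd4-/-, they measure how far the genotype difference varies between tissues. With genotype as a block, a constant genotype difference is taken out of the spread. Dyes were never swapped. Normexp (offset 50) used spot median signals, since mean signals are absent from 6 files. Named regions are the 12 largest differences each way past an adjusted p of 0.05 in each limma comparison, or the 4 smallest p where none passed, up to 5 each way in each pair, up to 12 high in wild-type ES cells or on all 8 arrays, each family's highest and lowest, and the X-linked members; others were named after their values were seen, and 5 genes are counted but not reported by name or drawn in the plots of single genes. Members and lists were chosen with earlier results of these data known. RefSeq tables are of GRCm38.p6, used for names, start windows and 1 sequence.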

Additional observations from a re-analysis of the deposited data

Results flagged for a closer look

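Among the 50 named regions, the 4 ES and the 4 liver and spleen arrays were each searched for 1 array apart from the other 3 by a gap of more than 0.829 of the range (Dixon's 95% value). Of 100 such sets 10 stood out. Chance gives about 1 in 20 where regions are not chosen by their values, but many of these were named for a large difference between arrays, so the count is a description and no test. The arrays of a set differ in genotype, and in the second also in tissue.

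Mbd4-/- spleen stood above the other liver and spleen arrays at Gabrq (2.10, the others at most 0.39), Gria3 (1.65, the others at most 0.22), Gabre (1.76, the others at most 0.33) and Kcnk15 (1.94, the others at most 1.38). Of these, 3 are X-linked. Aid-/- liver stood above them at Cacna1c (0.48, the others at most −0.41), and mbd4-/- liver stood below at Kcnma1 (−0.57, the others at least 0.49).

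Among the ES arrays, the knock down stood high at Kcnh3 (1.43, the others at most 0.20) and low at Grin1 (−1.58, the others at least −0.21). Wild type stood high at Kcnma1 (−0.16, the others at most −0.96) and low at Gabre (0.46, the others at least 0.76).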

How the results depend on the processing

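Counts of member regions moved with the scale of the arrays, the background correction and the arrays in the fit. For liver and spleen against ES cells, 0 members passed; 6 did with 1 plateau, 7 with the authors' values, 18 with aid-/- and mbd4-/- arrays and genotype as a block, and 1 with a limma trend. Leaving out 1 array gave 0 to 1, and 1 to 13 with 1 plateau (chosen after seeing the data; lowest without a liver array or mbd4-/- spleen, highest without the knock down). Scan day as a block and the first scan day alone gave 0. For aid-/- against mbd4-/- with tissue as a block, leaving out 1 array gave 0 to 19. Listed members of aid-/- against wild-type ES cells (30) were 8 with 1 plateau, 5 with normexp, 7 with the authors' values and 8 at a difference of 1.5. For mbd4-/- against wild type (22) they were 6, 3, 5 and 6. For the knock down (19) they were 34 with 1 plateau and 6 at 1.5. For liver (20) they were 4 with 1 plateau, 4 with the authors' values and 11 at 1.5; for spleen (20), 9 with 1 plateau and 7 at 1.5. With 1 plateau, the listed liver members were 4 higher and 0 lower and the spleen members 5 and 4, against 2 and 18 in each; with the authors' values they were 3 and 1, and 4 and 11. Grin2b turned from lower to near 0 in aid-/- against mbd4-/- with 1 plateau (0.005). The causes were not tested, beyond the scale that the 1-plateau setting changes. The other 113 checks of counts kept within 1.5 times, among them the members high in wild-type ES cells and on all 8 arrays. They include counts of 0 that stayed at 0, since no member passed in any limma comparison. Such checks say little about how stable the results are. No paired analysis was possible because each group is 1 array and no replicate numbers pair them; arrays were matched by tissue or by genotype as a block instead, as given above. The lowest share of bound signals above background, in aid-/- ES cells, limits low levels there.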
